A study of Mus musculus with 3 samples.

Results

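RNA levels of 10 mouse genes of the NRF2 antioxidant programme and of peroxide defence (Nfe2l2, Gclc, Gclm, Gsr, Txnrd1, Srxn1, Prdx1, Cat, Nqo1 and Hmox1) were read on 3 arrays of C2C12 cells, a mouse myoblast line. The members were given as gene symbols, and every probe set that the platform annotation pairs with 1 of these symbols alone was used. That gave 17 probe sets of 9 genes, of 20380 singly named probe sets of 12393 genes on the array. Prdx1, a peroxiredoxin that reduces hydrogen peroxide, is left without values, because its 5 probe sets carry the symbol of another gene as well.

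The groups were C2C12 cells transfected with DGKzeta (diacylglycerol kinase zeta, a lipid kinase that turns diacylglycerol into phosphatidic acid), C2C12 cells transfected with EGFP (enhanced green fluorescent protein, the control for transfection) and untreated C2C12 cells. All 3 samples are labelled 12 h, and wells had been plated for 18 h before FuGene transfection. The sources used here give neither the construct's promoter nor the share of cells transfected. Each group is 1 array, so no difference below has a replicate check, no p-value is given, and ratios are described by size alone.

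NRF2, the protein of Nfe2l2, is a transcription factor that is normally held by KEAP1 and sent for degradation; oxidants and electrophiles release it. It then binds antioxidant response elements together with small MAF proteins and raises genes that make and recycle glutathione, run the thioredoxin system, detoxify quinones and break down haem. Much of its control acts on the protein, so the mRNA of Nfe2l2 need not move with its targets. Catalase belongs to peroxide defence but is also under the control of FOXO and PPAR factors, and in muscle cells peroxide clearance bears on differentiation and on growth signalling.

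Promoter sequence is shown for the regulator gene and for the members whose array ratios were highest by any probe set, Cat and Srxn1. RefSeq promoters (GRCm38.p6, 250 bases before the start to 50 after it, 300 bases) were on hand for 7 of the 10 genes, 9 windows in all. Capitals mark the antioxidant response element core TGACNNNGC or the AP-1 site TGACTCA, each searched on both strands; a TGACTCAGC, the NF-E2 type of element, matches both at once.
Nfe2l2, chr2:75704614-75704913, minus strand: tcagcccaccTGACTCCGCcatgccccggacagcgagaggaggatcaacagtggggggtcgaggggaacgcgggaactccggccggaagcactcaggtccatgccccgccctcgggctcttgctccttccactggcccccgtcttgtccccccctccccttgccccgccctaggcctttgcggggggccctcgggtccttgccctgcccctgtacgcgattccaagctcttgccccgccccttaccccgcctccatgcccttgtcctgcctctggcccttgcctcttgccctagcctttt
Srxn1, chr2:152105274-152105573, plus strand: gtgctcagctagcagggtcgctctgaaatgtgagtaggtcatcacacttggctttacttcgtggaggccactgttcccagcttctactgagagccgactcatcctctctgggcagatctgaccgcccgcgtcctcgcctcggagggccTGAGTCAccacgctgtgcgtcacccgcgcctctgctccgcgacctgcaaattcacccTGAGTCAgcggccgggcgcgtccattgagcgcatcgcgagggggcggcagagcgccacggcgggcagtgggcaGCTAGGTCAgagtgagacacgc
Cat, chr2:103485104-103485403, minus strand: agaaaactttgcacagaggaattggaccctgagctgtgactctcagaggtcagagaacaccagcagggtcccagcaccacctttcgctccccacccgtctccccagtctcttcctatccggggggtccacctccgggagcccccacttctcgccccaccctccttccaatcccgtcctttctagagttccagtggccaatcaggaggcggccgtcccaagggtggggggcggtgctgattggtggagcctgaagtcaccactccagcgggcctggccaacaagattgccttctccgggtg
The element core stood in 1 place in the Nfe2l2 window (-240 to -232, counted from the start) and in 1 place in the Srxn1 window (29 to 37), where AP-1 letters stood at -102 to -96 and at -45 to -39. The letters that begin at -45 run on as TGAGTCAGC in the printed window. That form of the longer element was not searched for in any window, so its absence elsewhere is not shown. The Cat window held neither motif. Of the other windows, those of Gclm, Prdx1 and 1 of 3 of Txnrd1 held the core, and that of Nqo1 did not. Prdx1 held the full TGACTCAGC at -133 to -125. Over all 32851 promoters of this length, 12.4% held the core, 5.20% the AP-1 letters and 0.454% TGACTCAGC. A match of letters is a description and not evidence of binding.

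Some facts of the arrays bear on every ratio. Signals are MAS5 intensities that had been scaled per array, with a mean of about 499.9 between the 2nd and 98th percentiles on each array. A floor was set at 107, the 50th percentile of all values, and lower values were raised to it before log2; where 1 of the compared arrays lies below that floor, the ratio is a bound. The spread of a single probe set, from the 2 brightest probe sets of 2245 genes, was an SD of 0.40 on the log2 scale for DGKzeta over EGFP, 0.50 for DGKzeta over untreated and 0.27 for EGFP over untreated; it covers different probes on 1 RNA extract and not separate cultures. Dgkz checked the label: its probe sets were 18.0-fold and 12.8-fold higher in DGKzeta than in EGFP cells. Of 8 myoblast markers with a probe set, Myf5, Cdh15, Des, Vim and Chrna1 reached the floor on all 3 arrays, whereas Myod1, Pax7 and Mymk were under it on all 3. Of 10 markers of other cell types, 9 were under the floor on every array and Krt14, a keratin, was above it (644 in DGKzeta, 687 in EGFP and 589 in untreated cells); the summed signals of this list were 783, 785 and 725. The ratio of the 3' to the 5' Actb control probe set, a sign of shortened RNA or labelled product, was 2.55 on the DGKzeta array, 1.43 on the EGFP array and 1.27 on the untreated array, whereas for Gapdh it was 0.931, 0.902 and 0.841. The part of this difference in the ratios below was not tested.

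The comparison of DGKzeta with EGFP cells asks what went with the kinase when both cultures had been transfected. The NRF2 targets did not lie on one side of 0. By the brightest probe set of each gene, Cat, Nqo1, Gclc and Nfe2l2 had log2 ratios above 0 (0.12 to 0.82), and Gsr, Hmox1, Txnrd1, Gclm and Srxn1 had ratios below 0 (-0.58 to -0.28). The median of the 9 genes was -0.28, beside -0.02 over 6926 genes measured on at least 1 of both arrays. No member was 2-fold higher, where 0.347% of all genes were, and none was 2-fold lower, where 2.84% were. At 1.5-fold 1 member, Cat, was higher, where 3.51% of all genes were. These signs depend on how the arrays are scaled. Setting all arrays to the same median of their named probe sets (median scaling) moves the median of all genes to 0.33, that of the members to 0.09, Srxn1 to 0.09 and Gclm to 0.0026, whereas Gsr (-0.22), Hmox1 (-0.18) and Txnrd1 (-0.06) kept their sign. The median signals of the arrays were 92.5 in DGKzeta, 119 in EGFP and 111 in untreated cells, near the floor of 107. Median scaling is thus set by signals near the floor. In bulk RNA a change in a fraction of the cells and a smaller change in all of them cannot be told apart.

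**Figure D1:**
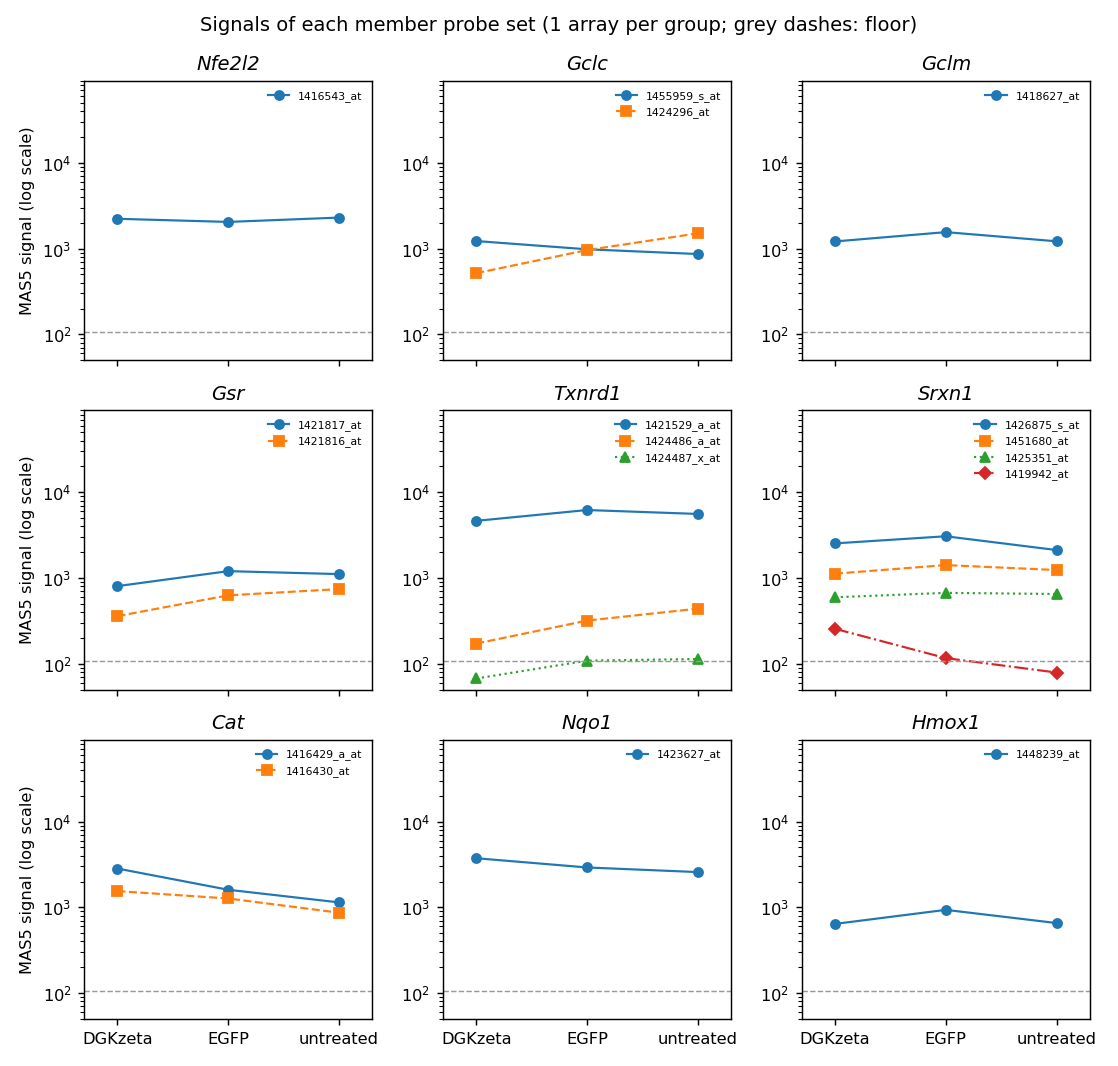
MAS5 signal (log axis) of each of the 17 member probe sets on the DGKzeta, EGFP and untreated arrays, 1 panel per gene and 1 point per array, with lines joining the values of a probe set and grey dashes at the floor of 107. Both Cat probe sets are highest in DGKzeta cells and lowest in untreated cells, while the 2 Gclc probe sets run in opposite directions.

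The comparison of DGKzeta with untreated cells joins the kinase with transfection. Cat was the one member past 2-fold, at 2.48-fold higher, where 1.34% of 6866 genes were at least 2-fold higher; at 3-fold 0 members were higher, where 0.16% were; no member was 2-fold lower by its brightest probe set, where 2.8% were. Nqo1 (0.54), Gclc (0.50) and Srxn1 (0.26) had log2 ratios above 0. Gclm (-0.01), Hmox1 (-0.03) and Nfe2l2 (-0.05) lay near 0, and Txnrd1 (-0.27) and Gsr (-0.47) below it. The median was -0.01, beside -0.02 over all genes, and 0.26 with median scaling, which put all genes at 0.24. This comparison and the one with EGFP share the DGKzeta array, so like values in both are not separate evidence.

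The comparison of EGFP with untreated cells joins transfection, EGFP itself and any difference between single cultures, which cannot be told apart. Here 8 of the 9 genes had log2 ratios above 0, with a median of 0.18, beside 0.02 over 6932 genes, of which 53.7% were above 0. Srxn1 (0.53), Hmox1 (0.51), Cat (0.49) and Gclm (0.36) had the highest ratios, and Nfe2l2 (-0.17) was the one below 0. The same EGFP array is the divisor in DGKzeta over EGFP, so opposite signs in both comparisons are not separate evidence. Of all genes, 5.27% had a ratio as high as that of Srxn1, 5.86% as that of Hmox1 and 6.51% as that of Cat. No member reached 2-fold in either direction, where 0.361% of genes were higher and 0.303% lower. Each of the 8 kept its sign under all 4 scalings, with the lowest value, 0.01 for Gsr, under median scaling. By second-brightest probe sets, however, Gclc (-0.65), Txnrd1 (-0.46) and Gsr (-0.24) were below 0, while Cat was at 0.55. Srxn1 was at 0.19 by its second-brightest probe set and at 0.04 and 0.12, the last a bound, by its dimmer ones. Its place as the highest member thus rests on 1426875_s_at alone.

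**Figure D2:**
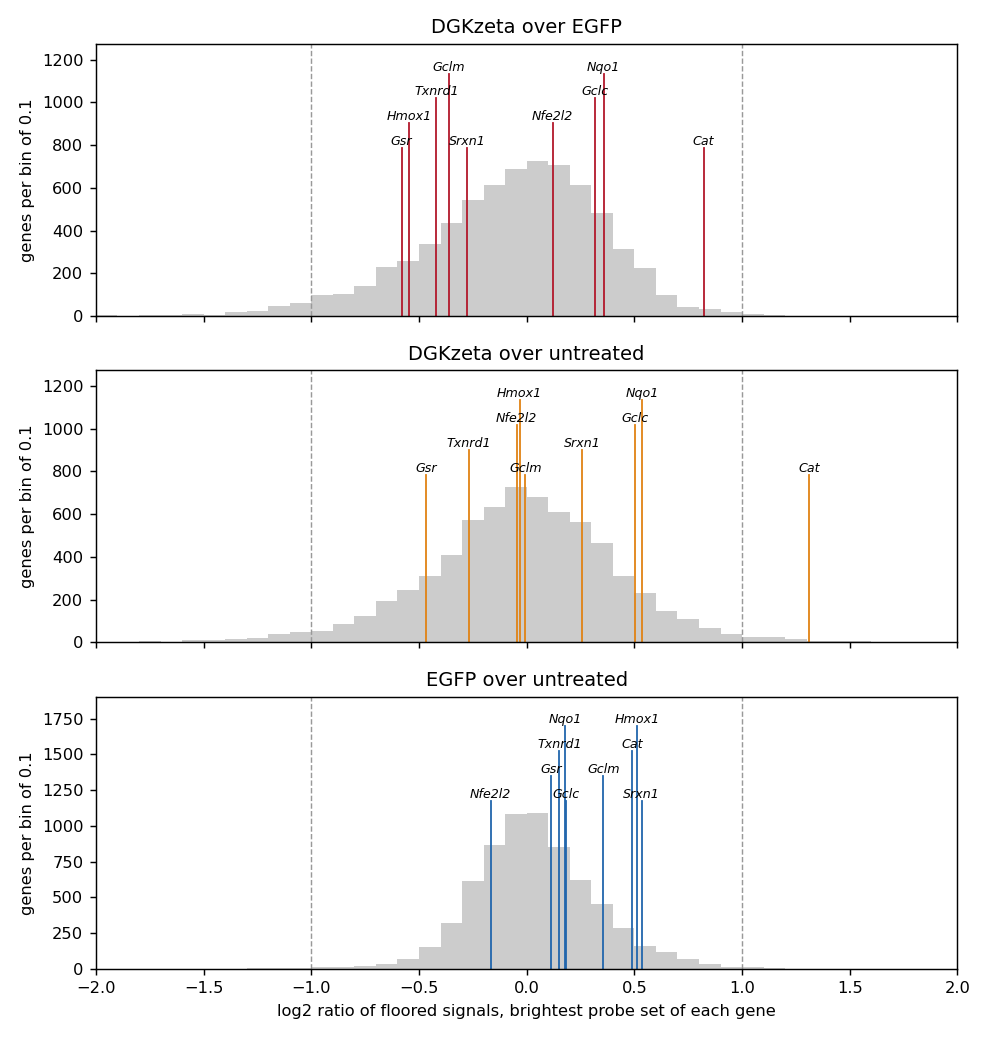
Number of genes per bin of 0.1 in the log2 ratio of floored signals (grey bars, brightest probe set of each gene, 1 panel per comparison), with a coloured line at each of the 9 members and dashes at 2-fold. Cat lies in the upper tail in both comparisons of DGKzeta cells, and in the comparison of EGFP with untreated cells 8 of the 9 lines lie above 0.

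Catalase, the peroxisomal enzyme that splits hydrogen peroxide into water and oxygen, had the highest ratio of the 9 genes by brightest probe set in both comparisons of DGKzeta cells; over EGFP the dimmest Srxn1 probe set was higher. Its brighter probe set, 1416429_a_at, had signals of 2836 in DGKzeta cells, 1605 in EGFP cells and 1143 in untreated cells. The other, 1416430_at, had 1549, 1269 and 866 in the same order of groups. Both were thus highest in DGKzeta cells and lowest in untreated cells. The log2 ratio over EGFP was 0.82 by the first and 0.29 by the other, and over untreated 1.31 and 0.84. By the brighter probe set, 0.982% of genes were as high over EGFP and 0.350% over untreated. In multiples of the single probe set SD, those ratios were 2.08 and 2.65. The ratio over untreated lay between 0.84 and 1.57 in 10 other settings of the processing, and that over EGFP between 0.29 and 1.19. Cat kept its direction in each, but not every setting could change it. Both probe sets lay above every floor used (562 at most), so the other floors, no floor and an added 3.17 changed little or nothing. Leaving out _x_at and _s_at probe sets kept the same probe set. The other settings reuse the same 3 arrays.

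Nfe2l2, the gene of NRF2 itself, had similar signals on the arrays as deposited. Its single probe set, 1416543_at, had signals of 2226 in DGKzeta cells, 2046 in EGFP cells and 2299 in untreated cells. The log2 ratio was 0.12 over EGFP and -0.05 over untreated, both under the spread of a single probe set. With median scaling the ratio over EGFP was 0.48, past that spread, and the ratio over untreated was 0.22, where all genes had medians of 0.33 and 0.24.

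The glutathione genes gave no common direction. Gclc encodes the catalytic subunit of glutamate-cysteine ligase, the rate-limiting enzyme of glutathione synthesis. Its probe set 1455959_s_at had 1224 in DGKzeta cells, 981 in EGFP cells and 864 in untreated cells, and 1424296_at had 516, 960.2 and 1506. The first was highest and the other lowest in DGKzeta cells. Over untreated cells the log2 ratio was therefore 0.50 by one and -1.54 by the other, and over EGFP 0.32 and -0.89, so Gclc has no direction that both probe sets share. Gclm encodes the modifier subunit of the same ligase. Its probe set 1418627_at had 1211 in DGKzeta cells, 1556 in EGFP cells and 1216 in untreated cells, highest in EGFP cells and nearly equal in the other groups, with a log2 ratio of -0.36 over EGFP that goes to 0.0026 with median scaling. Gsr encodes glutathione reductase, which returns oxidised glutathione to its reduced form with NADPH. Its probe set 1421817_at had 803 in DGKzeta cells, 1201 in EGFP cells and 1110 (1109.7) in untreated cells, and 1421816_at had 359, 627 and 742. Both were lowest in DGKzeta cells, with log2 ratios of -0.58 and -0.81 over EGFP and of -0.47 and -1.05 over untreated cells, and all 4 ratios stayed below 0 under each scaling.

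Txnrd1 was lowest in DGKzeta cells by the 2 of its 3 probe sets that lay above the floor on all arrays, whereas Srxn1 gave no common direction. Txnrd1 encodes cytosolic thioredoxin reductase, a selenoprotein. Its probe set 1421529_a_at had 4638 in DGKzeta cells, 6203 in EGFP cells and 5583 in untreated cells, and the much dimmer 1424486_a_at had 172, 318 and 439. Each was lowest in DGKzeta cells, with log2 ratios over EGFP of -0.42 and -0.89 and over untreated of -0.27 and -1.35, all below 0 under each scaling. With median scaling, however, 1421529_a_at was near 0, at -0.06 over EGFP and -0.0045 over untreated. The remaining one, 1424487_x_at, had 67.2 in DGKzeta cells, under the floor, against 108 and 113 in EGFP and untreated cells, too close to the floor to rank. Srxn1 encodes sulfiredoxin, which repairs over-oxidised peroxiredoxins. Its 4 probe sets split: 1426875_s_at had 2532 in DGKzeta cells, 3065 in EGFP cells and 2117 in untreated cells; 1451680_at had 1123, 1414 and 1238; and 1425351_at had 596, 670.5 and 650.3. These 3 were highest in EGFP cells, with log2 ratios over EGFP from -0.33 to -0.17 (0.03 to 0.19 with median scaling). The dimmest, 1419942_at, had 255 in DGKzeta cells, 116 in EGFP cells and 78.9 in untreated cells, 2.20-fold higher than EGFP and at least 2.38-fold higher than untreated. Srxn1 therefore changed sign with the probe set chosen.

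Nqo1 and Hmox1 are the members most used as readouts of NRF2. Nqo1 encodes a quinone reductase. Its probe set 1423627_at had 3743 in DGKzeta cells, 2921 in EGFP cells and 2579.8 in untreated cells, a log2 ratio of 0.36 over EGFP and 0.54 over untreated, above 0 under each scaling. Hmox1 encodes haem oxygenase, which degrades haem and is also induced through loss of the repressor BACH1. Its probe set 1448239_at had 641 in DGKzeta cells, 935 in EGFP cells and 656 in untreated cells. The EGFP array was the high one here, and DGKzeta and untreated cells were nearly equal, at log2 ratios of -0.54 over EGFP and -0.03 over untreated; the ratio over untreated was 0.06 to 0.23 under the other scalings. Nqo1 was thus highest in DGKzeta cells and Hmox1 in EGFP cells, by 1 probe set each. The ratio of Nqo1 over EGFP was under the spread of a single probe set, at 0.91 SD, and 13.8% of genes were as high. That of Hmox1 was at -1.38 SD, and 13.0% of genes were as low.

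**Figure D3:**
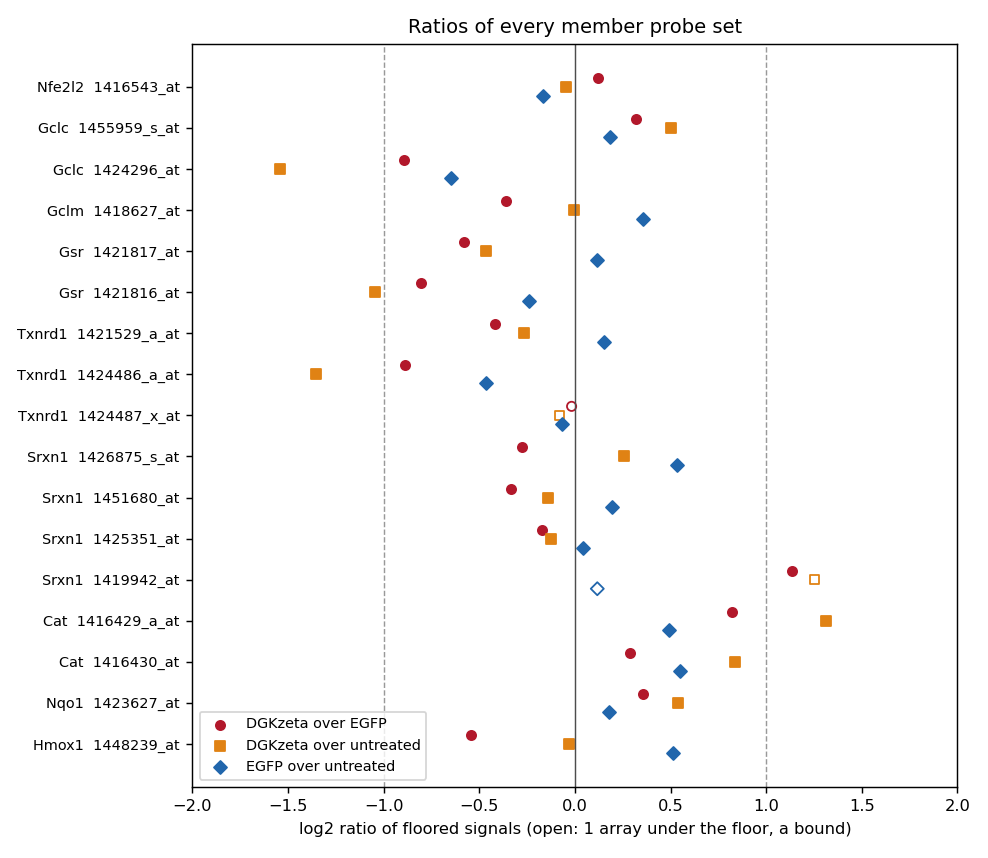
log2 ratio of floored signals for each of the 17 member probe sets in the 3 comparisons (1 marker per ratio; open markers are bounds with 1 array under the floor; dashes at 2-fold). Past 2-fold lie Cat 1416429_a_at and Srxn1 1419942_at on the higher side and Gclc 1424296_at, Gsr 1421816_at and Txnrd1 1424486_a_at on the lower side.

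Counted by probe set, 1 of 17 was at least 2-fold higher than in EGFP cells (Srxn1 1419942_at), where 0.497% of 10866 probe sets were, and 0 were 2-fold lower, where 4.28% were. Over untreated cells 2 of 17 were higher (Cat 1416429_a_at and Srxn1 1419942_at, background 1.84% of 10833) and 3 lower (Gclc 1424296_at at 2.92-fold, Txnrd1 1424486_a_at at 2.55-fold and Gsr 1421816_at at 2.07-fold, background 5.21%). For EGFP over untreated cells the counts were 0 and 0, with backgrounds of 0.447% and 0.785%. All 3 lower ones are the second-brightest probe set of their gene, a class in which 8.46% of 2647 genes lay 2-fold or more below untreated cells and 2.3% as far above them, where 2.8% of genes were lower by brightest probe sets. The low values of these probe sets are on the array with the highest 3' to 5' ratio of Actb, and the part of that ratio in them was not tested. Among the 15 member probe sets at or above the floor on all 3 arrays, the EGFP array was the highest in 7 (30.9% of 9688 such probe sets), the lowest in 1 (25.7%), and between the others in 7, of which 4 were highest in DGKzeta cells (21.3%) and 3 lowest (22.0%).

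**Figure D4:**
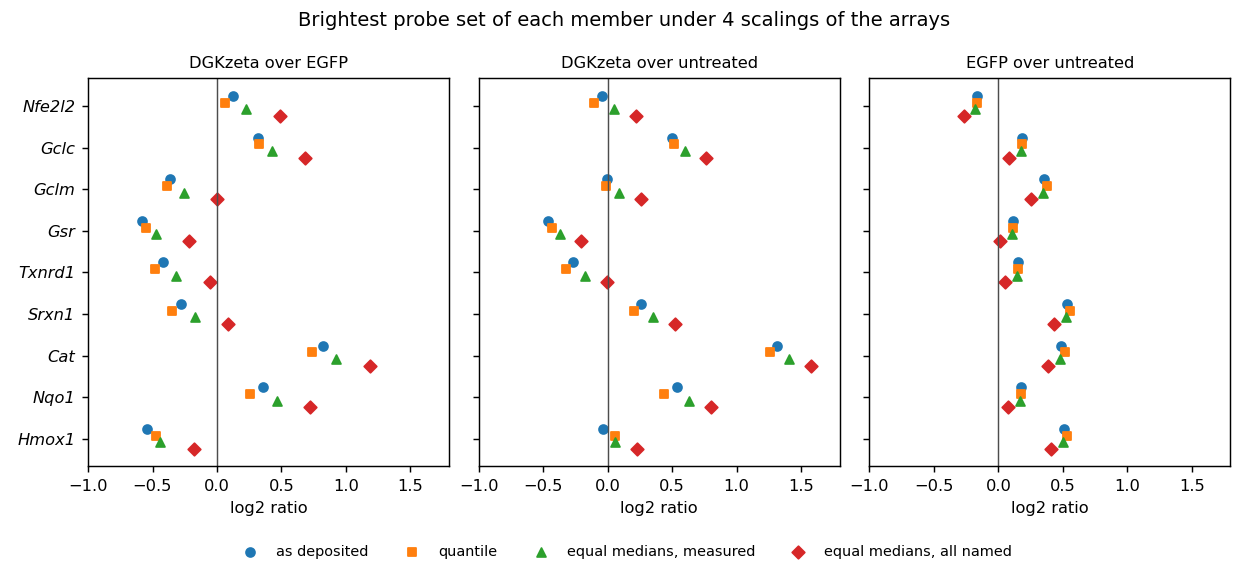
log2 ratio of the brightest probe set of each member under 4 scalings of the arrays (marker shapes), 1 panel per comparison. Median scaling shifts every DGKzeta ratio upward, and Cat stays the highest of the 9 in both comparisons of DGKzeta cells under each scaling.

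Other genes of the pathway were read from 9 lists of 93 genes, 82 of them with a singly named probe set. Over EGFP cells, 70 were measured on at least 1 array: 0 were 2-fold higher and 1 was 2-fold lower. Ratios above 0 were found in 39 of the 70, beside 47.4% of all genes. The median was 0.03, beside -0.02 over all genes. Over untreated cells, 0 of 69 were 2-fold higher and 1 was 2-fold lower, with a median of 0.10 beside -0.02. For EGFP over untreated cells, 0 of 70 were apart in either direction, with a median of 0.07 beside 0.02 (-0.03 beside -0.08 with median scaling). Set against these counts, all genes by brightest probe set were 2-fold higher in 0.347% and lower in 2.84% of cases over EGFP, and in 1.34% and 2.8% over untreated cells. For EGFP over untreated cells these shares were 0.361% and 0.303%. Ratios with 1 array under the floor are bounds, so a gene counted within 2-fold may lie past it.

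The regulators of NRF2 had the lowest median of the lists over EGFP. Of 12 measured regulators 3 had ratios above 0, beside 47.4% of all genes. The median was -0.46, beside -0.02 over all genes. With median scaling it was -0.09, beside 0.33 over all genes. Nfe2l1, a relative of NRF2 known for control of proteasome genes, had 279 in DGKzeta cells, 588 in EGFP cells and 526 in untreated cells, 2.11-fold lower than in EGFP cells. Mafg, a small MAF partner, had 429, 715 and 707, a log2 ratio of -0.74 over EGFP, and 268, 537 and 351 by its other probe set. Keap1, the adaptor that marks NRF2 for degradation, had 372, 563 and 564, a log2 ratio of -0.60 over EGFP. Gsk3b, a kinase that marks NRF2 for degradation by another route, had 210.0 in DGKzeta cells, 333 in EGFP cells and 444 in untreated cells, 2.12-fold lower than in untreated cells. These 4 were lowest in DGKzeta cells and stayed below 0 over EGFP under each scaling.

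The superoxide dismutase list had the highest median of the lists over EGFP. Superoxide dismutases, which turn superoxide into hydrogen peroxide, had a median of 0.24 over EGFP. All 3 measured genes were above 0, beside 47.4% of all genes: mitochondrial Sod2 at 0.53, cytosolic Sod1 at 0.24 and the copper chaperone Ccs at 0.15. Sod1 and Ccs lay under the spread of a single probe set (0.40). Second-brightest probe sets gave 0.19 for Sod2 and 0.33 for Sod1. Over untreated cells Sod2 was at 0.50, Ccs at 0.10 and Sod1 at 0.01. For EGFP over untreated cells 0 of the 3 were above 0, beside 53.7% of all genes. Peroxiredoxins and glutathione peroxidases had a median of 0.09 over 6 measured genes, with Gpx8 at 0.37, Prdx4, a peroxiredoxin of the endoplasmic reticulum, at 0.20, mitochondrial Prdx3 at 0.12 and Gpx4, which reduces lipid peroxides, at -0.11. Of 10 thioredoxin and glutaredoxin genes 5 had ratios above 0, beside the same 47.4% of all genes, with a median of -0.01. The ratio farthest from 0 was that of Sesn2, a stress-induced sestrin, outside the naming rule and chosen after its values were seen, with 76.5 in DGKzeta cells, under the floor, against 187 in EGFP cells, at least 1.74-fold lower. Above 0 were Txnip, an inhibitor of thioredoxin, at 0.51, Txnl1 at 0.39, Glrx2 at 0.28 and Txnrd3, a thioredoxin reductase, at 0.23, although the other Txnrd3 probe sets gave -0.15, a bound, and -0.21. By brightest probe sets and floored signals no gene of these lists was 2-fold apart from EGFP, and with median scaling Gpx4 (0.26) and the thioredoxin median (0.35) were above 0.

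By brightest probe sets and floored signals, no glutathione supply, NADPH or conjugation gene was measured past 2-fold. Slc7a11, the cystine transporter subunit that feeds glutathione synthesis, had 201 in DGKzeta cells, 144 in EGFP cells and 66.9, under the floor, in untreated cells, at least 1.87-fold higher than untreated, a bound that may lie past 2-fold. Ggct was at 0.32 over EGFP, Chac1, which degrades glutathione, at 0.15 and Gss, glutathione synthetase, at 0.09. Of the NADPH genes, Pgls of the pentose phosphate pathway was at -0.80, Me1 at -0.30 but at 0.31 by its other probe set, Idh1 at 0.27 and Taldo1 at 0.13, in a list of median -0.04. Of 18 measured conjugation and quinone enzymes 11 had ratios above 0, beside 47.4% of all genes, with a median of 0.05. The glutathione transferases Mgst1 (0.65) and Gsta2 (0.56) had the highest ratios, followed by Nqo2 (0.36) and Akr1a1 (0.32, with its 3 other probe sets from -0.18 up to 0.33). Mgst1 had 601 in DGKzeta cells, 382 in EGFP cells and 309 in untreated cells. Of iron and haem genes, of median 0.06, the iron exporter Slc40a1 was at 0.49, Tfrc, the transferrin receptor, at 0.28 but at -0.38 by its second probe set, Blvra, which acts after haem oxygenase, at 0.19 and Hmox2 at -0.19. That second Tfrc probe set had 289 in DGKzeta cells, 377 in EGFP cells and 629 in untreated cells, a log2 ratio of -1.12 over untreated, where the brightest gave 0.05. Metallothioneins, which bind metals and are induced by them, were split, with Mt2 at 0.39 and Mt1 at -0.33 over EGFP. With median scaling Me1 (0.06), Hmox2 (0.17), Mt1 (0.03) and the NADPH median (0.32) were above 0, where the median of all genes was 0.33.

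**Figure D5:**
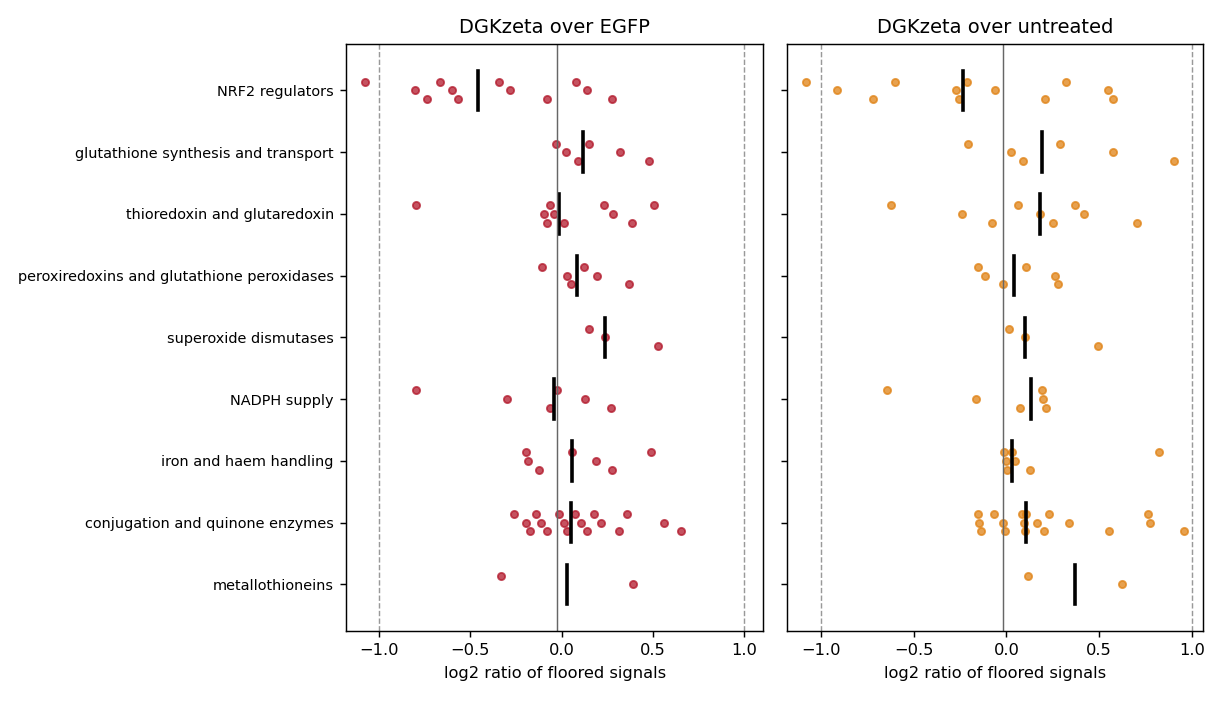
log2 ratio of floored signals for each measured gene of 9 pathway lists (points, brightest probe set), with the median of each list as a black bar, the median of all genes as a thin line and dashes at 2-fold, for DGKzeta over EGFP (left) and DGKzeta over untreated (right). NRF2 regulators have the lowest median in both panels, -0.46 and -0.23. With median scaling these are -0.09 and 0.03, where all genes have medians of 0.33 and 0.24. In each panel 1 gene lies past 2-fold.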

How the data were processed

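RNA of 3 C2C12 samples was hybridised to 1 Affymetrix array each, after biotin labelling, as the labels' protocols state. Each deposited file value is the linear intensity of a probe set; the submitters' processing notes name MAS5. Version, scaling target and presence calls were not stated there. The values were used as scaled by the authors. Of 22690 probe sets 64 are controls, 20380 have 1 gene symbol, 691 several and 1555 none; the last 2 classes were not named. By gene ID, 20351 were found in a RefSeq table of GRCm38.p6 and 0 symbols differed.

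A gene was its brightest probe set by mean log2 over the arrays. Values were floored at 107, and 2-fold on floored values was the rule of size. With 1 array per group there is no test; the number of arrays limits the precision. The members, lists and rules were chosen with earlier results of these data known. Named pathway genes are those at least 2-fold apart in any comparison and, per list, up to 4 with the largest ratio over EGFP among those at or above the floor on both arrays. Myoblast markers and markers of other cell types were read as levels.

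Alternatives were 3 other scalings (quantile normalization, and equal medians over the named probe sets, all of them or those at or above the floor on every array), a lower and a higher floor (25th or 75th percentile), none at all, adding 3.17 to each value instead, the mean over probe sets, leaving out _x_at and _s_at probe sets, second-brightest probe sets, and rules of 1.5-fold and 3-fold. The counting was tested on simulated data. Python 3.11.15, numpy 2.4.6, pandas 2.3.3 and matplotlib 3.10.9 were used.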

Additional observations from a re-analysis of the deposited data

How the results depend on the processing

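No paired analysis was possible because each group has 1 array. Of 258 single-gene ratios recomputed under the scalings, floors and probe set choices, 239 moved by less than the spread of a single probe set. The other 19 moved by more, all with another choice of probe set. Many of the 239 could not move. Equal medians, over all named probe sets or over those measured on all arrays, shifted every ratio of a comparison by the same amount, less than that spread. All 27 ratios under each of these scalings therefore counted among the 239. This held also where the sign changed, as for Srxn1 over EGFP (from -0.28 to 0.09). Brightest probe sets of members had signals of 641 or more, above every floor used (562 at most). Other floors and no floor therefore changed nothing, and the small added constant changed little. Members with 1 probe set could not change with the mean or without _x_at and _s_at probe sets. By second-brightest probe sets, 10 ratios moved by more than the spread and 5 by less. Median scaling over the named probe sets put the members' median at 0.088 for DGKzeta over EGFP, 0.26 for DGKzeta over untreated and 0.083 for EGFP over untreated cells. All genes then had medians of 0.33, 0.24 and -0.08. Under it 1 member (Cat) passed 2-fold over EGFP, and the share of all genes that did so is not given for this scaling. Second-brightest probe sets, which 5 members have, gave medians of -0.81, -1.05 and -0.24 in the same comparisons. Over 2245 genes with both probe sets at or above the floor on all arrays, the second-brightest gave -0.06, -0.08 and 0.005. By them 0 of the 5 members were 2-fold higher than in untreated cells, where 2.3% of 2647 genes were. Of the same 5 members 3 were 2-fold lower, where 8.46% of genes were. Without _x_at and _s_at probe sets 1 member (Gclc) was 2-fold lower than in untreated cells, and the share of all genes is not given for that choice. A rule of 1.5-fold counted 1 member higher than in EGFP cells, and one of 3-fold counted 0 higher than in untreated cells. The cause of these shifts was not tested beyond their construction, namely another scaling factor or other probe sets. Signals near the floor of 107, as for 1419942_at and 1424487_x_at, limit those ratios.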

Other observations

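Probe sets of the same gene often disagreed, in the members as in all genes. Of 5 members with 2 probe sets at or above the floor on all arrays, the brightest and second-brightest had opposite signs in 1 for DGKzeta over EGFP, 2 for DGKzeta over untreated and 3 for EGFP over untreated cells, beside 42.0%, 43.9% and 41.6% of 2245 genes.

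Some dimmer probe sets of pathway genes stood further apart than the brightest one; they are outside the naming rule and were chosen after their values were seen. Gsto1, a glutathione transferase of the omega class, had 7493 in DGKzeta cells, 3281 in EGFP cells and 2493 in untreated cells by 1456036_x_at, but 5969, 5846 and 6574 by 1416531_at. Prdx4 had 1481, 854 and 550.2 by 1416166_a_at, and a ratio over untreated cells of 1.43 on the log2 scale where the brightest probe set gave 0.26. Sesn1, a sestrin and target of p53, had log2 ratios over untreated cells of 1.23 and 1.04 by its dimmer probe sets and of -0.24 by the brightest. Abcc1, an exporter of glutathione conjugates, was at -1.02 over EGFP by 1421378_s_at and at 0.03 by 1452233_at.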
